A study of Mus musculus with 2 samples.

Results

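Lubricin and hyaluronan are the molecules that keep the surfaces of a joint slippery and its fluid viscous, and 8 genes that make, bind or break them down were followed here through the cells of the inflamed mouse temporomandibular joint (TMJ, the jaw joint). The genes were Prg4, Has1, Has2, Tnfaip6, Cd44, Hyal1, Hyal2 and Cemip, chosen by symbol from the genes of the deposited gene table, 32285 in all. The study compared the joint of wild-type (WT) mice with that of mice with a lymphatic deficiency. Single-cell RNA sequencing was done on 1 library of each genotype, both from C57BL/6 mice aged 8 to 10 weeks, which the study describes as female. Both genotypes had received complete Freund's adjuvant (CFA), an oil emulsion with killed mycobacteria that inflames a joint, by injection into the joint. The mutant animals are labelled Prox1 mutant and described in the methods as Prox1+/−, that is, with 1 intact copy of the gene for the transcription factor that specifies lymphatic endothelium. No joint without CFA was analysed here. The number of animals behind each library is not given in the sources used here.

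Prg4 encodes lubricin, also called proteoglycan 4, a mucin-like glycoprotein that fibroblasts of the synovial lining and superficial chondrocytes secrete onto the joint surface. Hyaluronan is a long unbranched sugar polymer. The synthases Has1 and Has2 sit in the plasma membrane and extrude the chain from UDP-sugars made in the cytosol. Tnfaip6 (TSG-6) is a secreted protein, induced by inflammation, that binds hyaluronan and transfers the heavy chains of inter-alpha-inhibitor onto it, and Cd44 is the main cell-surface hyaluronan receptor. Hyal1 is a lysosomal hyaluronidase, Hyal2 is a hyaluronidase anchored to the cell surface, and Cemip (also KIAA1199 or HYBID) is needed for hyaluronan depolymerization by fibroblasts and chondrocytes.

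After filtering, 4352 cells of the WT library and 5757 cells of the Prox1 mutant library remained, with a median of 6997 and 4848 unique molecular identifiers (UMIs, a count of captured RNA molecules) per cell. Cells were clustered without the 8 genes and without 43 further genes of lubricin and hyaluronan biology, so that the levels given here did not shape the clusters. Marker genes named 34 of the 45 clusters, in 19 classes, and 11 clusters with 541 WT and 1807 mutant cells stayed unnamed. Each class name stands for a likeness to marker genes, not for a cell type shown by other means. Haemoglobin RNA took 3.39% of the UMIs in the WT library and 8.76% in the mutant library, and 10 barcodes occurred in both libraries, of which 4 were kept in both. The targeted gene, Prox1, had 563 UMIs in the WT library, 152 of them in 1 cell, and 315 UMIs in the mutant library. Per 1000000 UMIs of all kept cells of a library, its level was 11.6 in WT against 5.80 in the mutant. The richest mutant cell held 34 Prox1 UMIs. Endothelial-like cells were 915 of the 4352 WT cells and 486 of the 5757 mutant cells. The parts of cell composition and of the richest cells in the Prox1 difference were not tested. With 1 library per genotype there was no replicate and no test. Levels are given as UMIs of a gene per 1000000 UMIs of the class (CPM), with exact Poisson 95% intervals that cover counting error only, and since the UMIs are not divided by transcript length, levels were not compared between genes.

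Prg4 was concentrated in very few cells. In the WT library 13412 Prg4 UMIs were counted in kept cells and in the mutant library 18045, and 12 WT cells and 9 mutant cells held 50% of them. Of the 12 WT cells, 10 belonged to a fibroblast group led by inflammatory genes and the other 2 to an unnamed fibroblast group, and all 9 mutant cells belonged to the inflammatory group. That group also carried markers of the synovial lining, and under other settings, given below, a lining-type group separated. Under 1 of them the lining-type group held 11269 Prg4 UMIs in the mutant, against 4038 in the inflammatory group. The richest single cell carried 1504 Prg4 UMIs in the WT library and 1532 in the mutant library. Prg4 lies at chr1:150449412-150466165 on the minus strand of GRCm38 and overlaps Tpr on the opposite strand.

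Mesenchymal-like cells (541 WT and 352 mutant cells, named from Dcn, Col3a1, Pdgfra and 4 other markers) held 92.2% of the Prg4 UMIs of the WT library and 91.9% of those of the mutant library. Their Prg4 level was 1513 CPM (1486 to 1540) in WT against 2772 CPM (2730 to 2814) in the mutant. The mutant level was thus 1.83 times the WT level (1.79 to 1.88, log2 difference 0.87). The share of mesenchymal-like cells in which Prg4 was found was close in both libraries. After each cell was thinned to 2000 UMIs, Prg4 was detected in 33.2% of the WT cells and 34.8% of the mutant cells, against 48.2% and 46.3% before thinning. Over all mesenchymal-like cells, the difference in level was thus not matched by one in the share of cells with a Prg4 UMI. Within single fibroblast groups, given below, this share differed between the libraries in both directions. Background, read in cells that should lack the gene, was lower. Among neutrophil-like cells thinned to the same depth, 0.64% of WT and 1.59% of mutant cells had a Prg4 UMI.

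Among the 16 named classes with at least 20 cells in each library, no other class came close to the mesenchymal-like level in the WT library, where the next class lay 24.3 times lower. That next class, smooth muscle-like cells at 62.2 CPM, owed 96 of its 103 Prg4 UMIs to 1 droplet with a doublet call, and without it the level was 4.33 CPM. Inflammatory macrophage-like cells followed at 61.4 CPM in WT against 30.9 CPM in the mutant, with 138 of 550 and 92 of 237 UMIs in the richest cell. Endothelial-like cells carried Prg4 at 35.0 CPM in WT against 12.02 CPM in the mutant, spread over many cells with few UMIs each. Most of these UMIs came from a capillary-type cluster led by Car4, Gpihbp1 and Timp4. There, 108 of 485 WT cells and 33 of 248 mutant cells had a Prg4 UMI, no cell had more than 6, and the level was 73.0 CPM (62.5 to 84.7) in WT against 27.2 CPM (19.6 to 36.8) in the mutant. The endothelial-like ratio of mutant to WT was 0.343 (0.250 to 0.462), opposite in direction to the mesenchymal-like ratio. Prg4-bearing free RNA and cell fragments were not measured, and their part in these low levels was not tested.

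**Figure D1:**
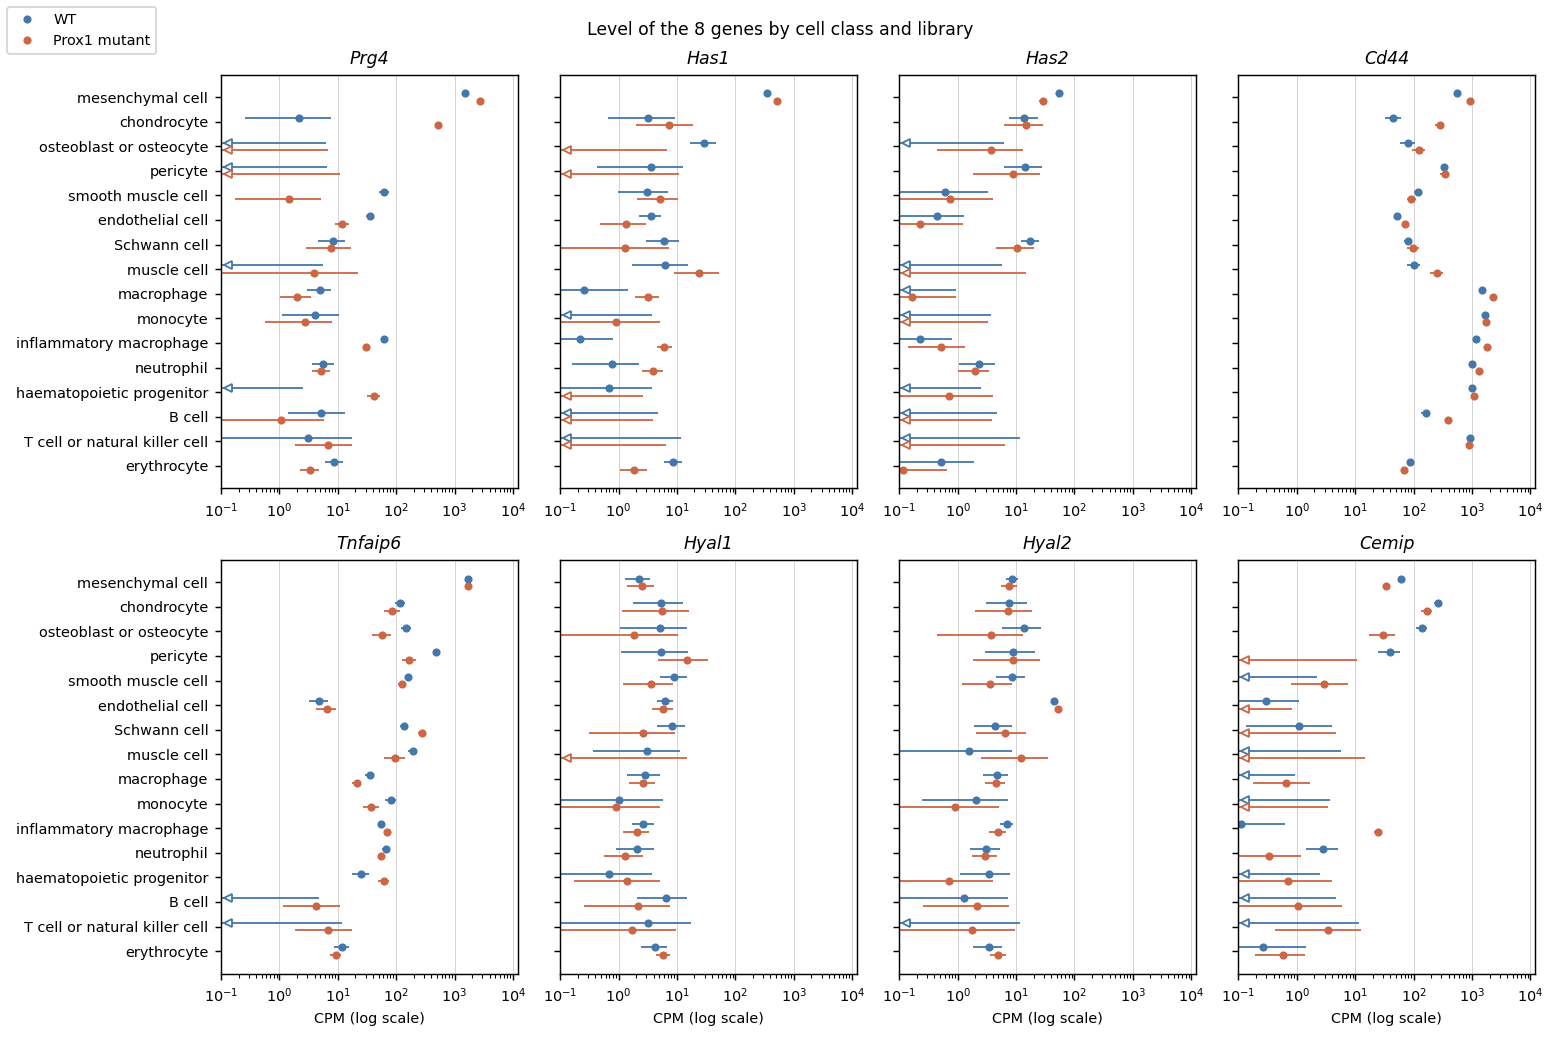
Level of each of the 8 genes (1 panel each, UMIs per 1000000 on a log axis, bars show exact Poisson 95% intervals) in the 16 marker-defined classes with at least 20 cells per library, WT and Prox1 mutant side by side; open triangles mark classes with 0 UMIs. Prg4, Has1, Has2 and Tnfaip6 stand highest in mesenchymal-like cells, Cd44 in macrophage-like and monocyte-like cells, Hyal2 in endothelial-like cells and Cemip in chondrocyte-like cells.

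Mesenchymal-like cells were clustered again, which gave 7 groups. They were a chondrogenic-like group (104 WT and 68 mutant cells), an inflamed fibroblast-like group (106 and 56, led by Saa3, Cxcl5 and Hbegf), a group led by Chodl, Kera and Bglap2 (66 and 39), a Pi16-type group (72 and 30), a Col15a1-type group (46 and 16) and 2 groups that no marker list named. One unnamed group (59 WT and 46 mutant cells) was led by Egfl6, Comp and S100a9 and the other (88 and 97 cells, shallower than the rest) by Rbfox1, Tenm2 and Kcnb2. The group led by Chodl had raised 6 tendon or ligament markers and 8 osteogenic or periosteal markers, among its leading genes Kera and Tnmd of tendon and Bglap, Bglap2 and Alpl of bone-forming cells, and is therefore called by its leading gene. The chondrogenic-like group, named from Col2a1, Snorc and 3 other cartilage genes, also had raised 6 osteogenic or periosteal markers, by less on average. Col9a1, Col9a3, Matn3, Cnmd, Ucma and Epyc of the cartilage list were not raised. With a stricter cell filter (at least 1000 genes) a cluster with the same first leading genes had 1 raised cartilage marker against 5 osteogenic or periosteal ones. That cluster stayed unnamed, so the name of this group is uncertain. The Col15a1-type group is called by the name of its marker list. It had raised Penk, Hsd11b1, Gdf10, Inmt, G0s2 and Lpl of that list, but not Col15a1 itself. A synovial lining-type group, marked by Clic5, Tspan15, Htra4, Hbegf, Itga6 and Cd55, did not separate here. The inflamed group carried 4 raised lining markers, among them Clic5 and Hbegf.

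Prg4 was highest in the inflamed group, at 3240 CPM (3172 to 3309) in WT against 6836 CPM (6718 to 6956) in the mutant, a ratio of 2.11 (2.05 to 2.17). The group led by Egfl6 came next, at 2360 CPM in WT against 2731 CPM in the mutant, followed by the Pi16-type group at 1010 and 781 CPM. In the Pi16-type group the mutant level was the lower one here (ratio 0.773, 0.689 to 0.867), although its median cell stood at 129 CPM in WT against 265.5 CPM in the mutant. This direction was not kept under other settings: the ratio was 1.085 with the looser cell filter given below, 1.073 with the genes of interest kept in the clustering and 1.005 without doublet calls, each with an interval that included 1. The 2 leading groups differed in how Prg4 was spread over their cells. In the inflamed group the median cell stood at 326 CPM in WT against 720 CPM in the mutant, while the upper quartile reached 1491 and 7435 CPM. In the group led by Egfl6 the median cell stood higher, at 1785 CPM in WT against 1386 CPM in the mutant, and 78.0% of WT and 73.9% of mutant cells held a Prg4 UMI after thinning, against 50.5% and 69.6% of the inflamed group. The neutrophil marker genes summed to 129 CPM in WT against 2415 CPM in the mutant in the group led by Egfl6, and their part in its levels was not tested.

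The group led by Chodl had 310 and 238 CPM, Col15a1-type cells 166 and 288 CPM, and the shallow unnamed group 163 and 188 CPM. In Col15a1-type cells 1 cell held 51 of the 80 UMIs in WT and 47 of the 74 in the mutant, and 63.7 and 115 CPM remained without it. In the group led by Chodl 1 mutant cell held 63 of 132 UMIs, and 126 CPM remained without it. The chondrogenic-like group was lowest in WT, at 61.7 CPM, and had 199 CPM in the mutant, where 1 cell held 105 of the 197 UMIs. Without the richest cell of each library the chondrogenic-like levels were 31.8 and 94.1 CPM. When doublet calls were left out before clustering, this group had 74 Prg4 UMIs in WT and 64 in the mutant. The ratio was then 1.23 (0.866 to 1.74), with an interval that included 1.

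The division of the Prg4 difference among groups depended on whether lining-type cells separated. With 30 instead of 200 principal components a lining-type group formed, with 67 WT and 47 mutant cells. It held 61.8% of the mesenchymal-like Prg4 UMIs in WT and 67.9% in the mutant, at 6473 CPM and 9215 CPM, a ratio of 1.42. The inflamed group next to it then had 1410 and 2601 CPM, a ratio of 1.84. A looser cell filter (at least 200 genes and under 20% mitochondrial UMIs) also gave a lining-type group, of 45 WT and 42 mutant cells, with 7749 and 9338 CPM and a ratio of 1.20. With this filter the group also had raised 5 tendon or ligament markers, by less on average, and Fmod and Scx were among its leading genes. In neither setting was Cd55 among the raised lining markers. Lining-type cells thus held most of the Prg4 RNA of the mesenchymal-like cells in both libraries wherever their group formed, and the mutant level was the higher one in the lining-type and in the inflamed groups alike, by less in the lining-type group. The inflamed group had 102 WT and 49 mutant cells with 30 components, and 99 and 46 with the looser filter. Lining-type cells were thus a larger part of these 2 groups in the mutant than in WT. The parts of level and composition in the ratio over all mesenchymal-like cells were not tested.

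**Figure D2:**
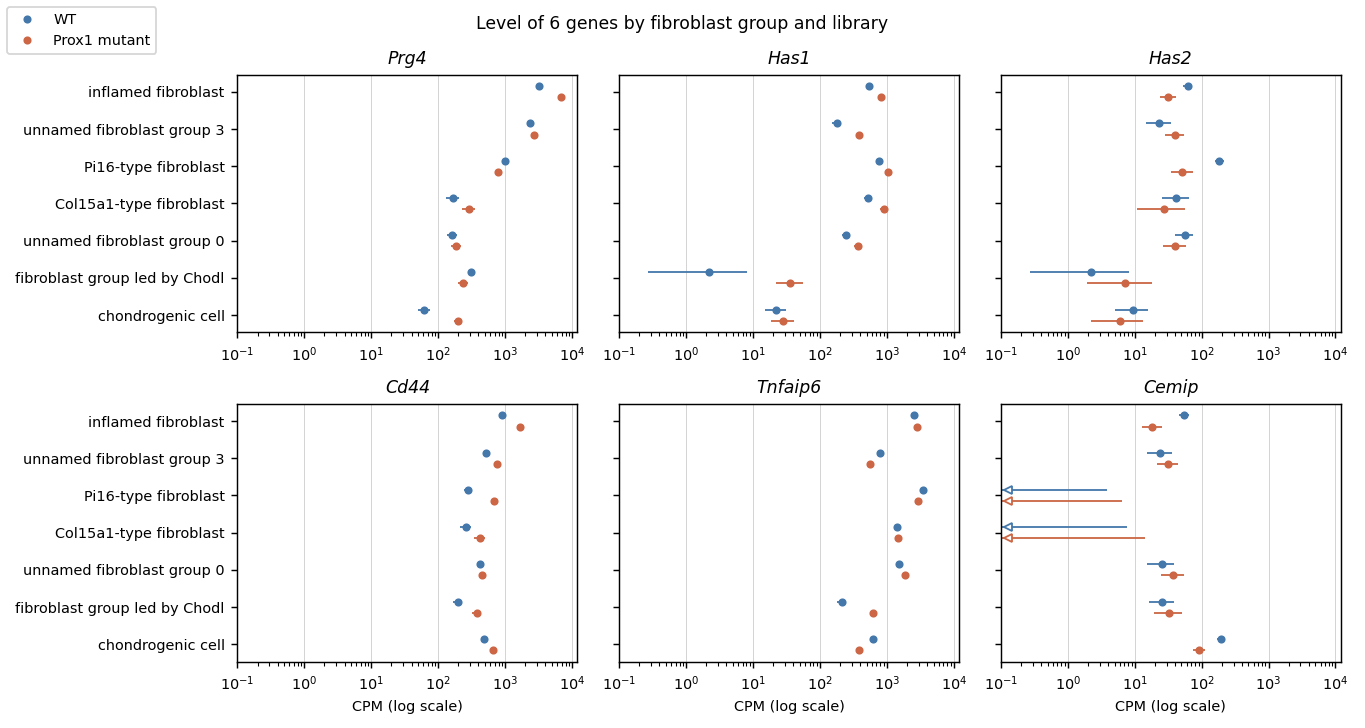
Level of 6 genes (UMIs per 1000000 on a log axis, bars show exact Poisson 95% intervals) in the 7 fibroblast groups, WT and Prox1 mutant side by side; open triangles mark 0 UMIs, and unnamed groups 3 and 0 are those led by Egfl6 and by Rbfox1. Prg4 is highest in the inflamed group (3240 CPM in WT, 6836 CPM in the mutant), Has1 and Tnfaip6 have their highest points in the Pi16-type group, and Cemip in the chondrogenic-like group. In the mutant the Pi16-type intervals of Has1 and Tnfaip6 overlap that of another group.

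The synthase Has1 was also almost wholly a gene of mesenchymal-like cells, which held 96.3% of its 2918 UMIs in the WT library and 91.1% of its 3356 UMIs in the mutant library. Its level there was 344 CPM (331 to 357) in WT against 511 CPM (493 to 530) in the mutant, a ratio of 1.49 (1.41 to 1.56, log2 difference 0.57). More cells had it: 24.0% of WT and 32.0% of mutant mesenchymal-like cells after thinning, against 0.32% and 2.19% of neutrophil-like cells. Has1 was more evenly spread than Prg4, since 39 WT and 34 mutant cells were needed to reach 50% of its UMIs.

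Has1 lies at chr17:17843323-17855205 on the minus strand. The bases just before its start are shown because Has1 and Tnfaip6, given below, were found in the same cells, and capitals mark a cyclic AMP response element (TGACGTCA) that begins 83 bases before the start. Here and for the genes below, the start is that of the RefSeq promoter table, which differs from the end of the gene span given from the annotation, so that for Has1 and Tnfaip6 part of the stretch lies within that span. The stretch is chr17:17855189-17855288 of GRCm38.p6, minus strand, from RefSeq.
Has1: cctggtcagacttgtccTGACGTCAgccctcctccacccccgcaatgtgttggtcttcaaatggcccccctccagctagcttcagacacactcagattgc
This motif, searched on both strands in the 250 bases before the start, was present in 508 of 32851 promoters (1.55%) and in 1 of the 6 genes described here that have an entry in the promoter table. A match is a description of the sequence and not a measured binding site.

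In the fibroblast groups the order of Has1 differed from that of Prg4. The Pi16-type group was highest at 777 CPM in WT against 1035 CPM in the mutant (ratio 1.33, 1.19 to 1.49), with the Col15a1-type group (526 and 918 CPM) and the inflamed group (539 and 824 CPM, ratio 1.53) next. The intervals of the latter 2 groups overlapped in each library, and in the mutant that of the Col15a1-type group also reached the Pi16-type one. Of the 16 mutant Col15a1-type cells, 1 held 86 of 236 Has1 UMIs. Without the richest cell of each group, the mutant Col15a1-type level was 639 CPM against 794 CPM in the inflamed group. The group led by Egfl6 had 178 CPM in WT against 378 CPM in the mutant, and the chondrogenic-like group 22.1 and 28.3 CPM. Has1 was nearly absent from the group led by Chodl, with 2 UMIs in WT and 20 in the mutant, 14 of them in 1 cell. In every one of the 7 groups the mutant value was the higher one, although for the group led by Chodl and the chondrogenic-like group the difference rested on few UMIs. Without the richest cell of each library the chondrogenic-like group had 17.6 CPM in WT against 15.4 CPM in the mutant, the opposite direction.

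Has2 went the other way. It lies at chr15:56665627-56694539 on the minus strand and overlaps the antisense gene Has2os. The WT library held 518 Has2 UMIs in kept cells and the mutant library 260, and mesenchymal-like cells carried 84.9% and 67.3% of them. Their level was 53.9 CPM (48.9 to 59.1) in WT against 29.2 CPM (25.1 to 33.9) in the mutant, a ratio of 0.543 (0.453 to 0.648). After thinning, 7.55% of WT and 3.08% of mutant cells had a Has2 UMI, against 0.64% and 0.20% of neutrophil-like cells.

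Among the fibroblast groups, the Pi16-type group had the largest difference in level. It stood at 184 CPM (158 to 213) from 175 UMIs in WT and at 51.5 CPM (34.5 to 73.9) from 29 UMIs in the mutant, a ratio of 0.280 (0.182 to 0.416). The inflamed group followed with 62.2 and 31.7 CPM (ratio 0.510). The group led by Egfl6 had 23.2 and 39.7 CPM, and the lining-type group that formed with 30 principal components had 22.2 and 38.4 CPM, both in the opposite direction. Outside the mesenchymal-like cells, Has2 was found in Schwann-like cells (17.5 CPM in WT against 10.3 CPM in the mutant), pericyte-like cells (14.31 and 8.82 CPM, from 8 and 3 UMIs) and chondrocyte-like cells (13.96 and 14.64 CPM), with intervals that overlapped between libraries. Among thinned mesenchymal-like cells with either synthase, 104 WT cells had Has1 alone, 17 Has2 alone and 23 both, and in the mutant library the counts were 100, 6 and 4.

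**Figure D3:**
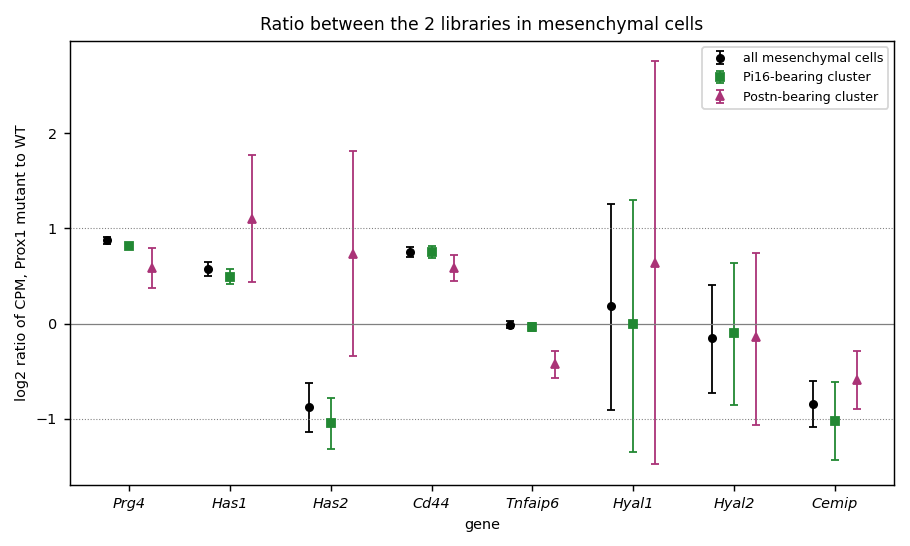
Difference between the Prox1 mutant and WT levels (y axis, log2 ratio of CPM, bars show exact 95% intervals for counting error) of each gene in all mesenchymal-like cells and in each of their 2 clusters, one bearing Pi16 and the other Postn; values with 3 or fewer UMIs in a library are left out and dotted lines mark 2-fold. Over all mesenchymal-like cells Prg4, Has1 and Cd44 lie above 0, Has2 and Cemip below 0 and Tnfaip6 at −0.01, and the Postn-bearing cluster differs most for Has2, at 0.73 with an interval that includes 0.

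Within mesenchymal-like cells Tnfaip6 was the member with the most even level between the libraries. These cells had 1686 CPM (1658 to 1715) in WT against 1673 CPM (1640 to 1706) in the mutant, a log2 difference of −0.01 (−0.05 to 0.03). They held 84.8% of the 16251 Tnfaip6 UMIs of the WT library and 78.1% of the 12809 of the mutant library. The share of cells was lower in the mutant: 52.3% of WT and 45.5% of mutant cells had a UMI after thinning. Neutrophil-like cells had 9.27% and 8.57%, and B-like cells 0% and 1.05%, so among the classes used as background the neutrophil-like one stood higher.

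Tnfaip6 lies at chr2:52038009-52056686 on the plus strand. Capitals in the stretch before its start mark a site of the AP-1 type (TGAGTCA) that begins 142 bases before the start, at chr2:52037963-52038112 of GRCm38.p6, plus strand, from RefSeq.
Tnfaip6: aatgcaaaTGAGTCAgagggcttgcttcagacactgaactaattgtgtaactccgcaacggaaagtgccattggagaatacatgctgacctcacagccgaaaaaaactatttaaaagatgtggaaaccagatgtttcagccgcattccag
The motif was present in 1466 of the 32851 promoters (4.46%), on either strand, and in 1 of the 6 members with an entry.

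By group, Tnfaip6 in WT was highest, as Has1 was, in the Pi16-type cells, at 3483 CPM (3366 to 3604). These cells had 2925 CPM (2785 to 3069) in the mutant. The inflamed group had 2550 and 2871 CPM, so the ratio of mutant to WT was below 1 in the first group (0.840) and above 1 in the second (1.13). In the mutant the intervals of these 2 groups overlapped. Without the richest cell of each group the inflamed group was the higher one there, at 2742 CPM against 2547 CPM. The typical Pi16-type cell differed by more than the summed level, with a median of 2922 CPM in WT against 673 CPM in the mutant, and 80.6% of the WT and 56.7% of the mutant cells had a UMI after thinning. The shallow unnamed group had 1512 and 1893 CPM and the Col15a1-type group 1407 and 1489 CPM. Of the 16 mutant Col15a1-type cells, 1 held 175 of 383 Tnfaip6 UMIs. Without the richest cell of each library this group had 1177 CPM in WT against 891 CPM in the mutant, the opposite direction. Lower levels were seen in the group led by Egfl6 (800 and 552 CPM) and the chondrogenic-like group (630 and 388 CPM). In the group led by Chodl Tnfaip6 had 211 CPM in WT against 624 CPM in the mutant, where a droplet with a doublet call held 160 of 347 UMIs. When doublet calls were left out before clustering, the matching group had 283 UMIs in WT and 190 in the mutant. The ratio was then 1.17 (0.971 to 1.415), with an interval that included 1. With the stricter cell filter it was 3.30 (2.74 to 4).

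Pericyte-like cells, the mural cells of small vessels, were second in the WT library at 485 CPM (429 to 546) and had 168 CPM (127 to 217) in the mutant. Schwann-like cells, the glia of peripheral nerve, showed the reverse, with 134 CPM in WT against 273 CPM in the mutant (ratio 2.03, 1.68 to 2.45). Osteoblast or osteocyte-like cells had 149 and 57.4 CPM. These classes were small, with 63 and 34 pericyte-like cells, and the richest pericyte-like WT cell held 74 of 271 UMIs.

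**Figure D4:**
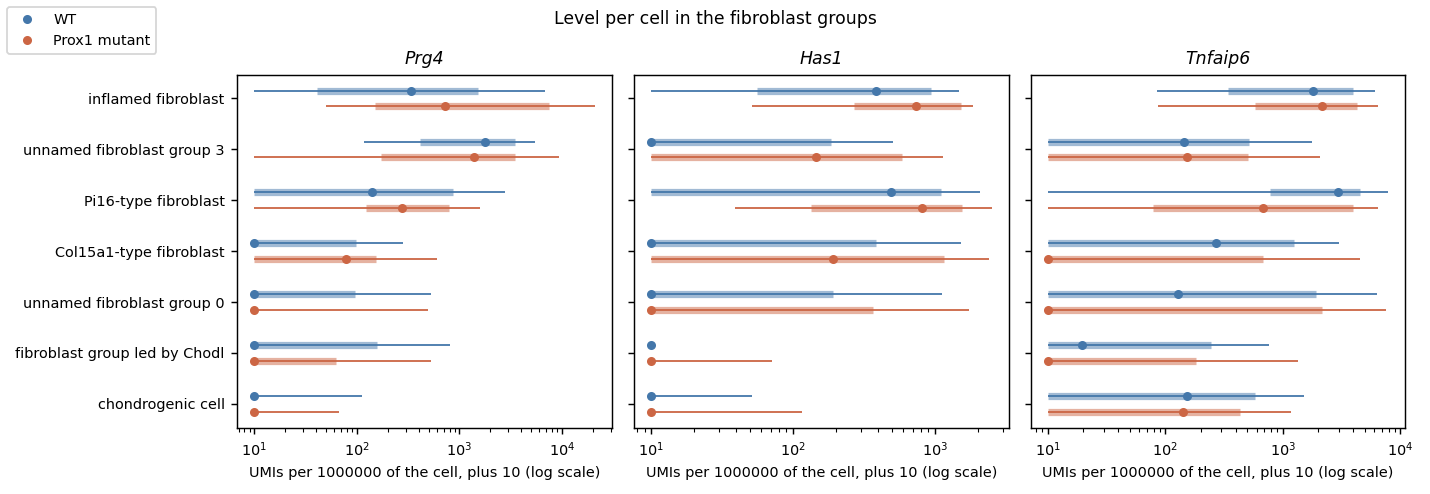
Level per cell of Prg4, Has1 and Tnfaip6 in the fibroblast groups (UMIs per 1000000 UMIs of the cell, plus 10, log axis); points mark the median cell, thick lines the lower to the upper quartile and thin lines the range from 10% to 90% of the cells. Unnamed groups 3 and 0 are those led by Egfl6 and by Rbfox1. In the inflamed group the Prg4 median is 326 CPM in WT against 720 CPM in the mutant, and the Tnfaip6 median of Pi16-type cells is 2922 against 673 CPM.

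Cd44, unlike the other members, had its highest levels among the classes in myeloid cells, although other cells also carried it. It lies at chr2:102811141-102901665 on the minus strand. It was detected in 49.2% of kept WT cells and 62.3% of kept mutant cells before thinning. In the WT library it was highest in monocyte-like cells (1650 CPM), macrophage-like cells (1484 CPM) and inflammatory macrophage-like cells (1171 CPM), whose intervals did not overlap. In the mutant library macrophage-like cells were highest at 2248 CPM, and inflammatory macrophage-like (1790 CPM) and monocyte-like cells (1761 CPM) overlapped. Macrophage-like and inflammatory macrophage-like cells thus had ratios of mutant to WT of 1.52 (1.47 to 1.56) and 1.53 (1.49 to 1.57), while the ratio for monocyte-like cells was 1.07 (0.998 to 1.14). Neutrophil-like cells had 1009 and 1294 CPM, and T cell or natural killer-like cells 932 and 900 CPM. Endothelial-like cells, at 52.6 and 71.9 CPM, and erythrocyte-like cells, at 87.8 and 68.7 CPM, were among the classes with little Cd44.

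In mesenchymal-like cells Cd44 had 550 CPM (534 to 566) in WT against 926 CPM (902 to 951) in the mutant, a ratio of 1.68 (1.62 to 1.75), and 41.5% and 52.0% of thinned cells had a UMI. The inflamed group was highest, with 909 and 1648 CPM (ratio 1.81), and the Pi16-type group had 280 and 674 CPM (ratio 2.41, 2.06 to 2.83). The mutant value was the higher one in each of the 7 groups, by the least in the shallow unnamed group (423 and 454 CPM), where the intervals overlapped.

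Cemip had its highest level in chondrocyte-like cells, although mesenchymal-like cells held more of its UMIs (497 of 864 in WT, 203 of 538 in the mutant). It lies at chr7:83932857-84086502 on the minus strand. Capitals in the stretch before its start, chr7:84086506-84086605 of GRCm38.p6, minus strand, from RefSeq, mark a TATA box (TATAAA) that begins 29 bases before the start, shown because Cemip was highest in other classes and groups than Has1.
Cemip: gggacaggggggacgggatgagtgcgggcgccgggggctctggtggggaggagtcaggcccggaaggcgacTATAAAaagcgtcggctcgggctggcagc
The motif was present in 4063 of the 32851 promoters (12.4%), on either strand, and in 1 of the 6 members with an entry. All 3 motifs were chosen with these sequences in view.

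Chondrocyte-like cells were highest in Cemip in both libraries, at 258 CPM (226 to 293) in WT against 168 CPM (136 to 207) in the mutant, from 240 and 92 UMIs. In WT, osteoblast or osteocyte-like cells came second at 138 CPM (110 to 172), and in the mutant they had 29.6 CPM (16.9 to 48.1). Mesenchymal-like cells had 60.8 and 33.9 CPM, a ratio of 0.558 (0.471 to 0.658, log2 difference −0.84). The size of this difference depended on which cells entered, with a log2 difference of −0.12 with 30 principal components and −1.50 with the looser cell filter. Within them the chondrogenic-like group was highest, with 192 CPM (171 to 216) in WT against 92.9 CPM (74.9 to 114) in the mutant. In WT 1 cell of this group held 91 of 287 UMIs, and without the richest cell of each library 134 and 72.65 CPM remained. The Pi16-type and Col15a1-type groups had no Cemip UMI in either library. The upper interval bounds were 3.88 CPM in WT and 6.55 CPM in mutant Pi16-type cells, and 7.67 and 14.34 CPM in Col15a1-type cells. The inflamed group had 54.7 and 18.3 CPM, and 23.8 and 10.05 CPM without the richest cell of each library. Cemip was concentrated in 12 WT and 5 mutant cells that held 50% of its UMIs. One of the 5 mutant cells was a droplet of the inflammatory macrophage-like class with a doublet call and 172 of that class's 187 Cemip UMIs.

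The chondrocyte-like class itself differed between the libraries. The 29 WT cells had a median of 32750 UMIs and the 102 mutant cells 2999 UMIs. The 11 chondrocyte markers summed to 46700 CPM in WT against 6481 CPM in the mutant, and the 7 erythrocyte markers to 155 and 77287 CPM. Erythrocyte RNA and depth therefore moved with every comparison in this class, and their part in it was not tested. Of the 2388 genes with at least 100 UMIs in this class, 12.6% were over 2-fold higher and 13.1% over 2-fold lower in the mutant. Of the 4 members counted, Prg4 and Cd44 were over 2-fold higher and none was over 2-fold lower. Prg4 had 2 UMIs in WT and 287 in the mutant (2.15 and 525 CPM), of which 159 came from 1 droplet with a doublet call, and 245 CPM remained without it. Cd44 had 45.1 and 278 CPM and was found in 7.14% of WT and 53.2% of mutant cells after thinning. Tnfaip6 had 116 and 86.0 CPM.

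Hyal2 was an endothelial gene in these data. It lies at chr9:107567945-107572779 on the plus strand, next to Hyal1 at chr9:107576927-107581710, which overlaps Hyal3 and Naa80 on the same strand. Endothelial-like cells held 53.2% of the 575 Hyal2 UMIs of the WT library and 47.0% of the 504 of the mutant library. The level was 45.4 CPM (40.5 to 50.8) in WT against 52.7 CPM (46.2 to 59.9) in the mutant (ratio 1.16, 0.975 to 1.38), and the next class was lower by 3.36 and 4.40 times. Within the endothelial-like cells it was lowest in the capillary-type cluster (27.7 and 25.3 CPM). It was higher in the cluster led by the arterial genes Gja5 and Sox17 (59.0 and 73.7 CPM) and in the cluster led by the venous genes Selp and Tacr1 (52.8 and 62.4 CPM). The capillary-type cluster thus had the most Prg4 and the least Hyal2 of the 3 endothelial-like clusters. In mesenchymal-like cells Hyal2 had 8.57 and 7.69 CPM, a log2 difference of −0.16 (−0.73 to 0.40).

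Hyal1 was near the limit of detection throughout, with 186 UMIs in the WT and 176 in the mutant library. Endothelial-like cells held 42 and 26 of these (6.24 and 5.79 CPM), erythrocyte-like cells 16 and 50 (4.205 and 5.816 CPM), and mesenchymal-like cells 18 and 15 (2.20 and 2.51 CPM). A difference in Hyal1 between the libraries was not detectable at this depth in mesenchymal-like cells, where the log2 difference was 0.19 with an interval from −0.91 to 1.26.

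Few genes of any kind were past 2-fold between the libraries in mesenchymal-like cells. Of 10238 genes with at least 100 UMIs in these cells, 1.15% were over 2-fold higher in the mutant and 2.17% over 2-fold lower, and the median log2 difference was 0.04. None of the 7 members counted was past 2-fold in either direction. None of the 24 counted genes of the wider list was past 2-fold either. Given the low share over all genes, few or none would be in sets this small. The rank of the members among all genes is not given here. The list's other 19 genes had fewer than 100 UMIs, among them the third synthase, Has3, with 1 UMI in WT and 3 in the mutant.

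Of the genes of synthesis and of the supply of UDP-sugars, from which hyaluronan is built, 7 were counted and none was past 2-fold. Ugdh, which makes UDP-glucuronate, had 612 CPM in WT against 640 CPM in the mutant, and Gfpt2, an isoform of the enzyme that commits fructose 6-phosphate to the hexosamine pathway, had 540 and 549 CPM. Uap1, which makes UDP-N-acetylglucosamine, had 533 and 575 CPM. In the breakdown group Hexa, a lysosomal hexosaminidase gene, was lower in the mutant (146 and 99.0 CPM), and the cell-surface hyaluronidase Cemip2 (61.8 and 87.4 CPM) was higher. Of the proteoglycans that bind hyaluronan, versican (Vcan) had 314 and 434 CPM and aggrecan (Acan) 186 and 248 CPM, while the link protein gene Hapln1 had 131 and 90.9 CPM. Creb5, a transcription factor known to regulate Prg4 in superficial cartilage, had 797 and 1042 CPM, and Foxo3 had 161 and 112 CPM. Ctss, a cathepsin that cleaves lubricin, had 45.1 and 75.2 CPM.

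In chondrocyte-like cells 13 genes of the list were counted, of which 1 was over 2-fold higher in the mutant and 4 were over 2-fold lower. Ctss was the higher one, with 15.04 CPM in WT against 454 CPM in the mutant. Aggrecan had 3410 and 825 CPM, Hapln1 3666 and 370 CPM, Thbs1 343 and 143 CPM and Ugp2 121 and 54.9 CPM. The cartilage matrix genes thus differed in the direction of the chondrocyte markers that named the class.

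Some of the members, mainly Prg4, Has1 and Tnfaip6, were detected together in part of the mesenchymal-like cells. Thinned mesenchymal-like cells with Has1 also had Tnfaip6 in 78.7% of cases in WT and 70.2% in the mutant, against 43.9% and 33.9% of cells without Has1. Cells with Prg4 had Has1 in 31.8% of cases in WT and 50.4% in the mutant, against 20.1% and 22.2% of cells without Prg4. Of the cells with Has1, 3 of 127 in WT and 0 of 104 in the mutant had Cemip. Cemip was itself rare after thinning, with a UMI in 23.1% of WT and 10.3% of mutant cells of the chondrogenic-like group, its highest. In the inflamed group these shares were 5.71% and 0%. The share with Cemip among cells without Has1 is not given here, and whether it was higher was not tested. All of Prg4, Has1 and Tnfaip6 were present in 44 of 530 WT cells (8.30%) and 43 of 325 mutant cells (13.2%). In the inflamed group these were 21 of 105 WT and 29 of 56 mutant cells, and in the Pi16-type group 15 of 72 and 8 of 30, while no cell of the chondrogenic-like group or of the group led by Chodl had all 3. Taken singly, Prg4 was in 50.5% of thinned WT and 69.6% of thinned mutant cells of the inflamed group. Has1 was in 48.6% and 76.8% of them, and Tnfaip6 in 77.1% and 83.9%. Whether the 3 genes met more often than their separate shares would give was not tested. Cells of a library share its depth and preparation, and richer cells show more genes even after thinning, so these counts describe the cells and carry no test.

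The genes whose levels were most like those of each member were ranked over 44 profiles, made of the classes and fibroblast groups of both libraries, by Pearson's r of log2(CPM + 5) among 13696 genes. The profiles of a class in 2 libraries are not independent, and r is given as a description. For Prg4 the nearest genes were Lrrn4cl (0.88), Sema3c (0.87), Myoc (0.87), Sfrp1 (0.86) and Igfbp6 (0.86), and among the members Has1 (0.80). For Has1 they were AW551984 (0.94), Clec3b (0.93), Lrrn4cl (0.92), Nova1 (0.91) and 1700019D03Rik (0.91). Has2 was nearest to Nova1 (0.92), Clip4 (0.90), Sema3c (0.90), Ugdh (0.89) and Efemp1 (0.89), and Tnfaip6 to Gsn (0.92), Ndn (0.89), Tbx15 (0.88), Numbl (0.87) and Gfpt2 (0.87). Ugdh and Gfpt2 thus stood among the 5 nearest genes of Has2 and Tnfaip6. Cemip had other neighbours, namely Pth1r (0.85), a receptor of the growth plate and of bone-forming cells, Cthrc1 (0.84), Sdk2 (0.83), Col12a1 (0.83) and Cgref1 (0.82).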

How the data were processed

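Single-cell suspensions of the TMJ were sequenced on the 10x Genomics platform, and the authors deposited UMI counts per gene and barcode, made with Cell Ranger 7.0.1 on GRCm38 (mm10). Labels and methods differ on the kit version and the collagenase used, and intron counting is not given in the sources used here. Barcodes were kept when they had 500 or more genes and a mitochondrial share below 10%. Counts were normalised with SCTransform (sctransform 0.4.2, Seurat 5.3.0, R 4.3.3), joined by anchor integration and grouped at resolution 1.5 over 200 principal components, without the 8 genes and a list of 43. A cluster was named when at least 3 markers were over 2-fold higher than in the other clusters, unless it was shallow or led by other genes. Mesenchymal-like cells were clustered again on 30 components at resolution 0.5. UMIs were summed per class and library with Python 3.11.15 and scipy 1.17.1, and intervals (Poisson, Clopper-Pearson, binomial for ratios, all exact, 95%) cover counting error only. Shares were computed after thinning cells to 2000 UMIs, leaving out shallower cells. Scrublet (scanpy 1.11.5) called no doublet by its own threshold, so the 239 WT and 462 mutant barcodes with the highest scores were marked and kept. The named genes were the 8 members, the list genes past 2-fold in mesenchymal-like or chondrocyte-like cells, and the 5 nearest genes of 5 members. The further list genes were named after their values were seen. Members and lists were chosen with earlier results of these data known. Scripts were tested on simulated data. Alternatives covered the cell filter, doublets, integration, components, resolution, features and denominator.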

Additional observations from a re-analysis of the deposited data

Results flagged for a closer look

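Some unnamed clusters, which enter no comparison above, held members at 5 or more times the highest upper bound seen in the classes that should lack them (neutrophil-like, B-like and erythrocyte-like cells), with and without their richest cell. In the mutant library a cluster of 199 cells (10 in WT), led by Igha, Car1, Cxcl5, Smoc1 and Timp1 and with 3 raised mesenchymal markers, carried 4 of them. Prg4 had 680.9 CPM there against a bound of 7.43, Has1 175.9 CPM against 5.87, Has2 37.91 CPM against 3.92 and Tnfaip6 702.1 CPM against 61.6. Prg4 also had 162.8 CPM in a cluster of 177 mutant cells led by Erbb4, Marco and Acta2, 94.32 CPM in a cluster of 50 mutant cells with Mmp10 and Ccl2 among its leading genes, and 58.68 CPM in a cluster of 270 mutant cells led by Igkc, Igha and Pf4, with 57, 19 and 30 UMIs. In the WT library a shallow cluster of 97 cells led by Ctla2a, Plvap and Fabp4 had 79.78 CPM of Prg4 from 18 UMIs, against a bound of 13.2.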

How the results depend on the processing

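The log2 difference of mutant and WT in mesenchymal-like cells kept its direction for Prg4, Has1, Cd44 and Cemip under all 14 alternatives, and for Has2, Tnfaip6 and Hyal2 under 13 and Hyal1 under 10. A difference counts as moved where it left the main counting interval. With 30 principal components it was −0.12 for Cemip, 0.48 for Has1, 0.79 for Prg4 and −0.0643 for Tnfaip6. With a looser cell filter (at least 200 genes) it was −1.50 for Cemip, 0.49 for Has1 and −0.0490 for Tnfaip6, and with a stricter one (1000 genes) −0.0690 for Tnfaip6. Without doublet calls it was 0.75 for Prg4 and −0.0586 for Tnfaip6, and with resolution 0.5, 0.50 for Has1 and 0.82 for Prg4. In libraries merged without integration it was 0.67 for Cd44, 0.37 for Has1, 0.70 for Prg4 and −0.14 for Tnfaip6. Fibroblasts taken by their own marker UMIs gave 0.82 for Cd44, −1.13 for Cemip, 0.67 for Has1 and 1.15 for Prg4, and mean UMIs per cell gave 0.92 for Cd44, 0.74 for Has1, 1.04 for Prg4 and 0.16 for Tnfaip6. Without the richest cells Prg4 had 0.93. Of the alternatives added after seeing the data, the unnamed cluster with 3 mesenchymal markers gave 0.68 for Cd44, 0.48 for Has1, 0.77 for Prg4 and −0.0937 for Tnfaip6. The mesenchymal-like cells form 2 clusters. The one with Pi16 alone gave 0.49 for Has1 and 0.81 for Prg4. The one with Postn alone gave 0.59 for Cd44, −0.59 for Cemip, 1.10 for Has1, 0.58 for Prg4, −0.43 for Tnfaip6 and, reversed, 0.73 for Has2. No cause was tested. Keeping the 8 genes and the list as features, or leaving haemoglobin and mitochondrial UMIs out of the total, moved none of the 8. Levels and shares also depended on the processing. Levels in the leading class counted as moved in 64 checks and as the same in 69. Levels in the fibroblast groups moved in 41 and stayed in 101, and shares of mesenchymal-like cells moved in 30 and stayed in 2. No paired analysis was possible because each genotype has 1 library. Depth limits Hyal1 and Hyal2 in most classes.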

Other observations

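Beside the members, 2 hyaluronan receptors of the wider list, chosen after their values were seen, lay in a handful of endothelial-like cells. Stab2, a scavenger receptor of sinusoidal endothelium that clears hyaluronan, had 115 UMIs (17.1 CPM, 14.1 to 20.5) in WT and 468 UMIs (104 CPM, 94.9 to 114) in the mutant, of which 5 cells held 111 and 456. Lyve1, the hyaluronan receptor of lymphatic and some sinusoidal endothelium, had 55 UMIs (8.17 CPM) and 113 UMIs (25.2 CPM), of which 5 cells held 46 and 113. Nearly all of these UMIs (115 and 467 of Stab2, 53 and 111 of Lyve1) came from the cluster led by Selp and Tacr1.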
